A study of Homo sapiens with 8 samples.

Results

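The genes described here are the 35 constitutive proteasome genes, chosen by gene symbol out of 60592 gene rows in the deposited tables. The choice was made with earlier results of these data known. They are the 14 subunits of the 20S core particle (PSMA1 to PSMA7 and PSMB1 to PSMB7), 18 subunits of the 19S regulatory particle (PSMC1 to PSMC6, PSMD1 to PSMD4, PSMD6 to PSMD8, PSMD11 to PSMD14 and ADRM1), the maturation factor POMP, and PSME3 and PSME4, which encode alternative activators of the core. All 35 were found, and all 35 passed the filter on low values that was set for testing, which was at least 1 FPKM in at least 2 libraries. FPKM, the deposited unit, is the number of fragments scaled to gene length and library size, so levels of different genes can be set beside each other.

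The libraries were made from total RNA of WSU-DLCL2, a human cell line of diffuse large B-cell lymphoma. There were 4 groups of 2 libraries each. FDX1-OE ES cells overexpressed FDX1, a mitochondrial iron-sulfur protein, and received elesclomol (ES), a copper-carrying small molecule, at 15 nM for 48 h. Control ES cells, labelled wild type, received the same dose for the same time. FDX1-OE DMSO and control DMSO cells received the solvent for 48 h. How FDX1 was overexpressed, and whether the FDX1-OE line is 1 clone or a pool, is not given in the sources used here. Separate cultures are not stated for libraries of the same group, so the spread behind the p-values is that between these samples and may be technical only.

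The proteasome is the main protease of the cytosol and nucleus and degrades proteins that carry chains of ubiquitin. Its 20S core is a barrel of alpha rings around beta rings, and the peptide bonds are cut inside the barrel by the beta subunits encoded by PSMB5, PSMB6 and PSMB7. The 19S particle caps the barrel: ubiquitin receptors in it bind the substrate, a ring of ATPases unfolds it, and PSMD14 in the lid removes the ubiquitin chain. When proteasome activity falls short, the transcription factor NFE2L1 is released from the endoplasmic reticulum, cut by the protease DDI2, and raises the transcription of proteasome genes together with small MAF partners. Lymphoid cells also make an immunoproteasome, in which PSMB8, PSMB9 and PSMB10 replace the catalytic beta subunits.

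FDX1 had 60.7 and 59.4 FPKM in FDX1-OE ES libraries, 9.88 and 10.0 FPKM in control ES libraries, 59.8 and 56.0 FPKM in FDX1-OE DMSO libraries, and 10.8 and 10.4 FPKM in control DMSO libraries, which follows the labels. All 6 B cell markers examined were above 1 FPKM in every library, and their summed level was 1355 to 1391 FPKM in FDX1-OE ES libraries and 1461 to 1498 FPKM across the other 6. No T or NK cell marker reached 1 FPKM in any library, and 3 of these 6 markers were at 0 in all 8. Of 6 myeloid markers AIF1 alone reached 1 FPKM, and the list summed to 3.25 and 4.97 FPKM in FDX1-OE ES libraries, 3.46 and 4.30 FPKM in control ES libraries, and 1.62 to 2.35 FPKM in DMSO libraries. Of 6 epithelial and fibroblast markers DCN alone reached 1 FPKM, and that list summed to 0.978 to 1.77 FPKM over all libraries. The FDX1-OE ES libraries stood apart from the rest. Their FPKM summed to 408018 and 403024, against 445716 to 451027 in the other 6 libraries, and they had 11868 and 12047 genes at 1 FPKM or more, against 10815 to 11320. Their replicates also differed more: the median absolute log2 difference between the libraries of a group was 0.16 in FDX1-OE ES, 0.09 in control ES, and 0.07 and 0.08 in FDX1-OE DMSO and control DMSO. The part of these differences in the results below was not tested beyond the scalings and left-out libraries given with them. In bulk RNA, fewer cells of a kind and less RNA per cell cannot be told apart. The absolute depth of the libraries is not given.

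The levels of the proteasome genes differed widely between subunits that are built into the same particle. Averaged over the 4 group means, PSMB4, a structural beta subunit, stood highest at 202 FPKM, followed by PSMA7 at 195 FPKM, PSMB1 at 147 FPKM, PSMD2 at 145 FPKM and PSMB3 at 143 FPKM. PSMD12, a lid subunit, stood lowest at 14.7 FPKM, below PSMA5 at 23.1 FPKM, the activator gene PSME4 at 25.0 FPKM and the base ATPase gene PSMC1 at 27.5 FPKM. The order held few clear steps: PSMB1, PSMD2 and PSMB3 lay within each other's range over the 8 libraries, whereas PSMD12 stayed at 12.5 to 16.1 FPKM, below the lowest library of every other member. Of the catalytic subunits, PSMB7 averaged 77.3 FPKM, PSMB6 74.0 FPKM and PSMB5 63.7 FPKM. Over the 8 libraries the highest value of a member was 1.10 times the lowest for PSMC2, the flattest, and 1.70 times for PSMA7, the most variable.

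**Figure D1:**
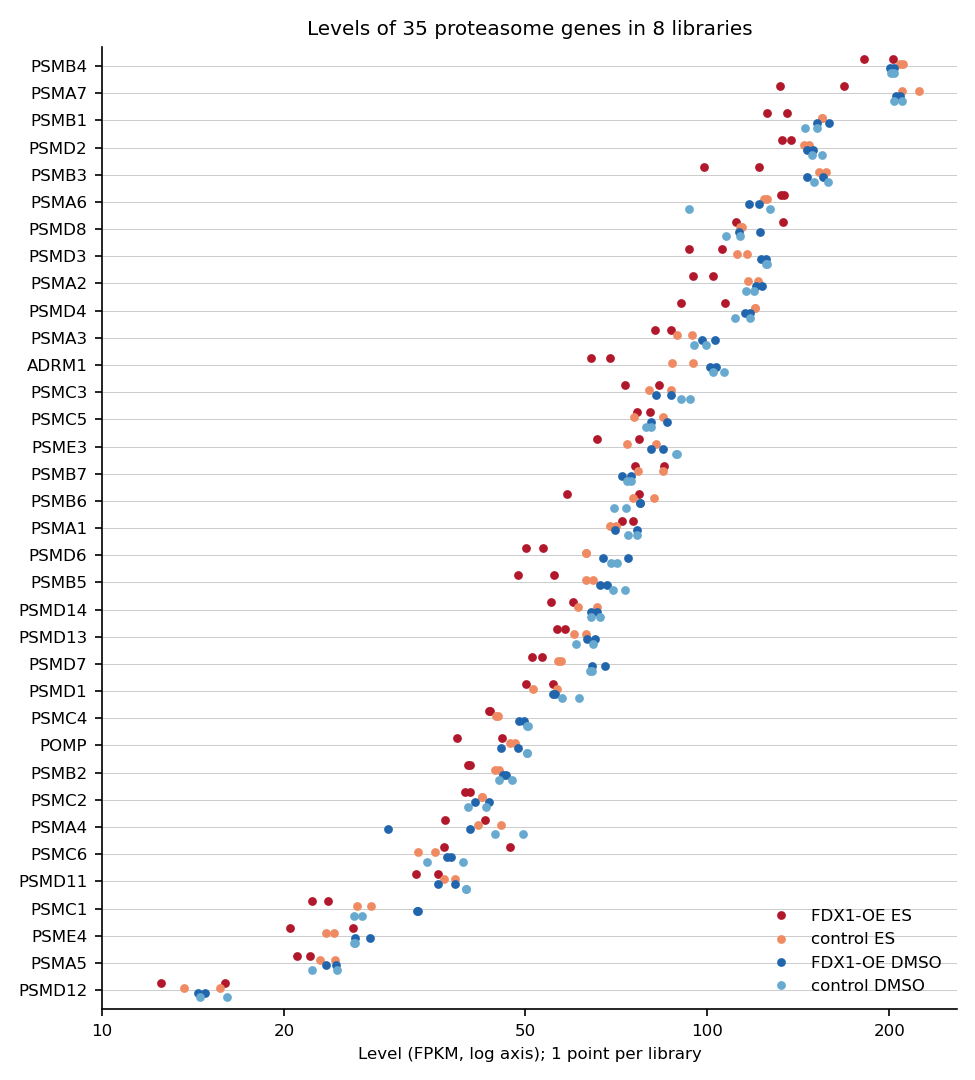
FPKM of each of the 35 proteasome genes in each of the 8 libraries, ordered by mean level on a log axis, with 1 point per library coloured by group. Levels run between 12.5 and 224 FPKM, and for PSMA7, PSMB3 and ADRM1 the FDX1-OE ES points lie below the other 6.

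Summed over all 35 genes, the proteasome transcripts made up 2488 and 2637 FPKM in FDX1-OE ES libraries, 2877 and 2878 FPKM in control ES libraries, 2903 and 2946 FPKM in FDX1-OE DMSO libraries, and 2924 and 2927 FPKM in control DMSO libraries. Both FDX1-OE ES libraries were below the other 6, which lay close together. As a share of each library's summed FPKM, the same genes held 0.610% and 0.654% in FDX1-OE ES libraries, 0.644% and 0.643% in control ES libraries, 0.651% and 0.654% in FDX1-OE DMSO libraries, and 0.648% and 0.655% in control DMSO libraries. As a share, only the first FDX1-OE ES library lay outside the range of the others.

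NFE2L1 is known to bind antioxidant-response-type elements, and their core TGACNNNGC was searched on both strands of the RefSeq promoter windows (GRCh38.p14, 300 bases each, 250 before and 50 after a transcription start). Of the 35 genes, 30 had a window, and 9 of these held a match (30.0%), against 4384 of 27305 genes in the same table (16.1%). The genes with a match were PSMA4, PSMB3, PSMC4, PSMC5, PSMD1, PSMD3, PSMD12, ADRM1 and PSME4. PSMA7, PSMB1, PSMB6, PSMB7 and PSMD4 had no window. The 5 promoters below are those in which every window listed for the gene held a match before the start, and they are shown because they place the element in genes that fell with elesclomol (ADRM1, PSMB3 and PSMD3) and in genes not called (PSMD12 and PSME4). Each line gives the 250 bases before the start, read 5′ to 3′ on the gene's strand, with the match in capitals. The positions are chr20:62302646-62302895 on the plus strand for ADRM1, chr17:38752491-38752740 on the plus strand for PSMB3, chr17:39980557-39980806 on the plus strand for PSMD3, chr17:67366578-67366827 on the minus strand for PSMD12, and chr2:53970994-53971243 on the minus strand for PSME4.
ADRM1: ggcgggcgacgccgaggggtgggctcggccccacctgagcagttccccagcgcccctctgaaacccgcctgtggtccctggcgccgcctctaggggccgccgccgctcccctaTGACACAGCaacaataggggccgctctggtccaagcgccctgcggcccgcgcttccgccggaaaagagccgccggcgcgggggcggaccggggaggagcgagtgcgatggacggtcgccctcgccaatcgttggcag
PSMB3: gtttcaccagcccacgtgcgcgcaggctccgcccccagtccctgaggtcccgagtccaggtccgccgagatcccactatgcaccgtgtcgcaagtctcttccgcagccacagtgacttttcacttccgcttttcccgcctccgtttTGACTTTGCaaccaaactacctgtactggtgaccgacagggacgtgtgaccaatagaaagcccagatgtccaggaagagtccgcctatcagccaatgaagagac
PSMD3: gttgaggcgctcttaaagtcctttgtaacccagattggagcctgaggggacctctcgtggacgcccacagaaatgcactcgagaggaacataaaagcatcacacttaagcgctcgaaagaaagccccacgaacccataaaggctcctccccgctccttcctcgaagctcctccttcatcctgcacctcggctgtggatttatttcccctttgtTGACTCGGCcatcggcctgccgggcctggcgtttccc
PSMD12: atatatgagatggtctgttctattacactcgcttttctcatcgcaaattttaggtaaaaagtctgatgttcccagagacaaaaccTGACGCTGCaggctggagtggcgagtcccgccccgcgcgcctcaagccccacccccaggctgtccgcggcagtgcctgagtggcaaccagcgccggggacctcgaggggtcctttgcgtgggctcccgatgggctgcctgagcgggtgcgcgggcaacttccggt
PSME4: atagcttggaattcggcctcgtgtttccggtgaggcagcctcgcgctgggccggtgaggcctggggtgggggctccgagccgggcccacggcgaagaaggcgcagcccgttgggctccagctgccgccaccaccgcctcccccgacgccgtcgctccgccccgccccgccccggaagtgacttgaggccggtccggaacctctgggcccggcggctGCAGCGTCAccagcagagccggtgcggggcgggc
The match is TGACACAGC at 137 to 129 bases before the start in ADRM1, TGACTTTGC at 104 to 96 bases in PSMB3, TGACTCGGC at 37 to 29 bases in PSMD3 and TGACGCTGC at 165 to 157 bases in PSMD12. In PSME4 the element lies on the other strand, 34 to 26 bases before the start, and reads GCAGCGTCA on the gene's strand. A match is a run of letters and not a shown binding site.

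With the authors' scaling, transcripts of both proteasome particles were lower with elesclomol in FDX1-OE cells. How many were lower depended on the scaling of the libraries. Between FDX1-OE ES and FDX1-OE DMSO, 15 of the 35 genes were lower and 0 were higher, against 13.7% of all 12063 tested genes lower and 47.1% higher. The falls were moderate, between 0.17 and 0.61 on the log2(FPKM + 1) scale, and reached both particles: 7 of 14 core subunits and 8 of 18 regulatory particle subunits were lower. The median log2 fold change of the 35 genes was -0.17, while that of all tested genes was 0.25, so the proteasome genes lay 0.42 below the general shift (-0.42). Among the 4557 genes whose mean level was at or above that of the lowest member, 25.9% were lower and 35.5% were higher, with a median of 0.07. Libraries of the 2 groups did not overlap and were lower in FDX1-OE ES for 23 of the 35 genes, against 20.1% of all tested genes. With equal FPKM totals, 8 of the 35 genes were lower and their median was -0.03, against 9.06% of all tested genes lower. Under median-ratio scaling, 29 were lower and their median was -0.46, against 27.2%. With the authors' scaling and any single library left out, the median of the 35 genes stayed between -0.19 and -0.16. Its distance from the median of all tested genes stayed between -0.44 and -0.40. The count of lower genes was smallest without FDX1-OE DMSO replicate 2.

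ADRM1, which encodes a ubiquitin receptor of the 19S base, fell most. It had 64.2 and 69.1 FPKM in FDX1-OE ES libraries, against 101 and 103 FPKM in FDX1-OE DMSO libraries. Its log2 fold change was -0.61 (SE 0.07, adjusted p = 0.000156). PSMC1, an ATPase of the 19S base, had 23.6 and 22.2 FPKM in FDX1-OE ES libraries, against 33.3 and 33.2 FPKM in FDX1-OE DMSO libraries, a log2 fold change of -0.52 (SE 0.07, adjusted p = 0.000314). In both genes the groups were well separated and replicates lay close together. The lid subunit gene PSMD6 had 53.5 and 50.3 FPKM in FDX1-OE ES libraries, against 67.3 and 74.0 FPKM in FDX1-OE DMSO libraries, a log2 fold change of -0.44 (SE 0.07, adjusted p = 0.000752). The other regulatory particle genes that fell were PSMD7 (-0.33) and PSMD13 (-0.17) of the lid, PSMD3 (-0.32), another lid subunit, PSMD4 (-0.24), a ubiquitin receptor, and the ATPase PSMC4 (-0.17). PSMD13 lost its call under 12 of the 16 alternative settings, PSMD4 and PSMC4 under 7 each, PSMD3 under 1 and PSMD7 under 0.

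In the alpha ring, which gates the entry to the barrel, PSMA7 had 132 and 169 FPKM in FDX1-OE ES libraries, against 208 and 205 FPKM in FDX1-OE DMSO libraries. The log2 fold change was -0.47 (SE 0.10, adjusted p = 0.00479), and the FDX1-OE ES replicates were far apart although both lay below the DMSO libraries. PSMB3, a structural subunit of the beta ring, showed the same spread, with 98.9 and 122 FPKM in FDX1-OE ES libraries against 146 and 155 FPKM in FDX1-OE DMSO libraries (log2 fold change -0.46, SE 0.09, adjusted p = 0.00343). PSMA2 (-0.30), PSMA3 (-0.25), PSMB1 (-0.25) and PSMB2 (-0.19) were the other core subunits without catalytic activity that fell. PSMB2 lost its call under 5 of the 16 alternative settings, PSMB1 under 3, PSMA3 under 2 and PSMA2 under 0.

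The catalytic subunits did not move alike. PSMB5, which carries the chymotrypsin-like activity and is the main target of bortezomib, had 48.6 and 55.8 FPKM in FDX1-OE ES libraries, against 68.2 and 66.5 FPKM in FDX1-OE DMSO libraries, a log2 fold change of -0.36 (SE 0.07, adjusted p = 0.00323). PSMB6, the caspase-like subunit, had 58.7 and 77.2 FPKM in FDX1-OE ES libraries, against 77.5 and 77.6 FPKM in FDX1-OE DMSO libraries (log2 fold change -0.20, SE 0.11, adjusted p = 0.155). PSMB7, the trypsin-like subunit, had 76.0 and 84.9 FPKM in FDX1-OE ES libraries, against 74.8 and 72.4 FPKM in FDX1-OE DMSO libraries (log2 fold change 0.12, SE 0.07, adjusted p = 0.174). PSMB5 thus passed the test and the other catalytic subunits did not. The sign of PSMB7 turned to -0.16 under median-ratio scaling. Differences between the catalytic subunits themselves were not tested.

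Of the genes outside the 2 particles, none passed the test in this comparison. POMP, the chaperone that drives maturation of the core, had 45.9 and 38.6 FPKM in FDX1-OE ES libraries, against 48.8 and 45.7 FPKM in FDX1-OE DMSO libraries (log2 fold change -0.16, SE 0.08, adjusted p = 0.126). PSME3, which encodes the nuclear activator PA28 gamma, had 77.3 and 65.8 FPKM in FDX1-OE ES libraries, against 80.8 and 84.5 FPKM in FDX1-OE DMSO libraries (log2 fold change -0.21, SE 0.09, adjusted p = 0.0665). PSME4, which encodes the activator PA200, had 26.0 and 20.5 FPKM in FDX1-OE ES libraries, against 27.8 and 26.1 FPKM in FDX1-OE DMSO libraries (log2 fold change -0.22, SE 0.10, adjusted p = 0.099). The POMP libraries of the 2 groups overlapped, and those of PSME3 and PSME4 did not.

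**Figure D2:**
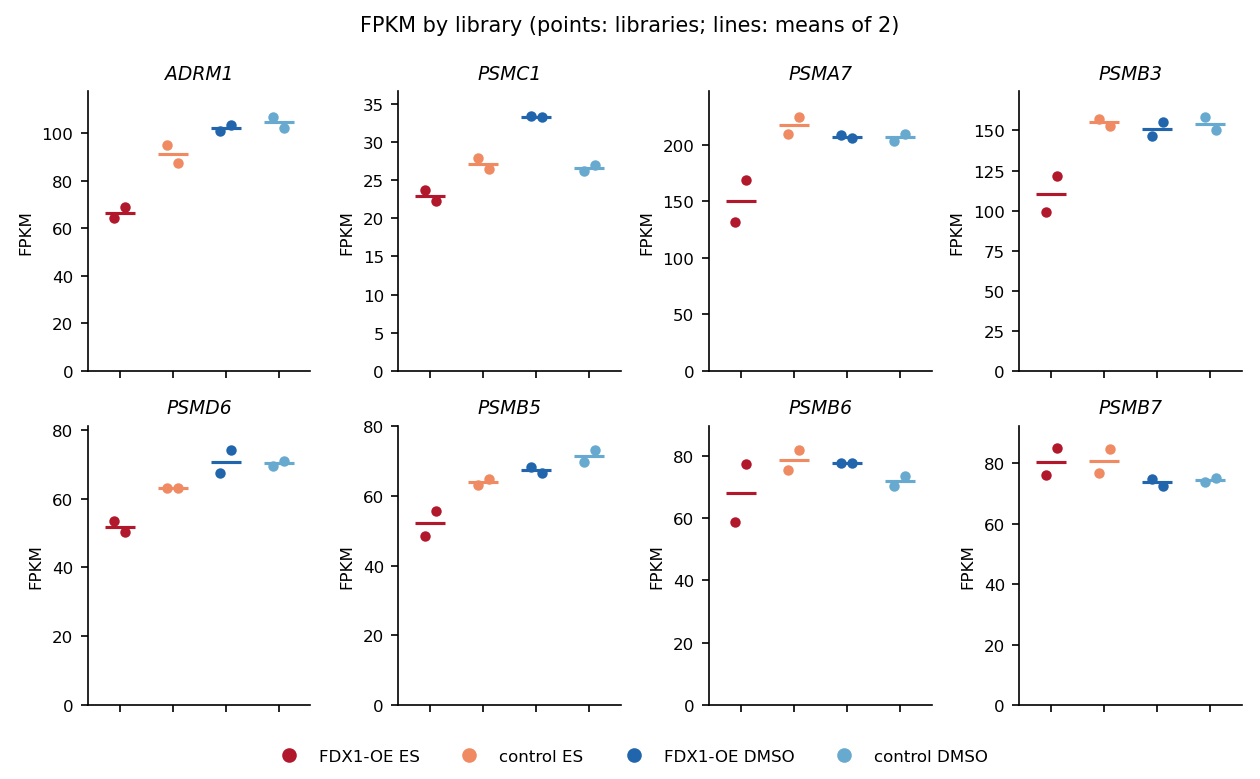
FPKM by library for selected proteasome genes, with 1 point per library, a horizontal line at each group mean (n = 2), and the groups ordered FDX1-OE ES, control ES, FDX1-OE DMSO and control DMSO. ADRM1, at 64.2 and 69.1 FPKM in FDX1-OE ES, lies below all other libraries, while PSMB7 stays between 72.4 and 84.9 FPKM throughout.

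The comparison under drug, FDX1-OE ES against control ES, asks what FDX1 overexpression adds when elesclomol is present. Here 10 of the 35 genes were lower and 0 were higher, against 10.4% of all tested genes lower and 31.1% higher. They were 5 core subunits (PSMA2, PSMA7, PSMB1, PSMB3 and PSMB5) and 5 regulatory particle subunits (PSMC1, PSMD3, PSMD4, PSMD6 and ADRM1). The median log2 fold change of the 35 genes was -0.12 and that of all tested genes 0.16, a distance of -0.28. Among genes at or above the level of the lowest member, 21.0% were lower and 22.0% were higher, with a median of 0.02.

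PSMA7 differed most, with 132 and 169 FPKM in FDX1-OE ES libraries against 210 and 224 FPKM in control ES libraries (log2 fold change -0.54, SE 0.10, adjusted p = 0.00515). PSMB3 had 98.9 and 122 FPKM in FDX1-OE ES libraries against 157 and 153 FPKM in control ES libraries (log2 fold change -0.50, SE 0.09, adjusted p = 0.00482). ADRM1 had 64.2 and 69.1 FPKM in FDX1-OE ES libraries against 94.9 and 87.6 FPKM in control ES libraries (log2 fold change -0.45, SE 0.07, adjusted p = 0.00189). These 3 genes, a gate subunit, a structural subunit and a ubiquitin receptor, kept their call under all 16 alternative settings. Of the other 7, PSMD3 lost it under 13, PSMD4 under 6 and the rest under 3 to 5. Fewer genes were called lower when either control ES library was left out, and fitting only the ES libraries gave 3. Shares of all tested genes in these fits are not given here, so the members cannot be set against all genes there. With any single library left out, the median of the proteasome genes stayed between -0.14 and -0.10. Its distance from the median of all tested genes stayed between -0.31 and -0.25.

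PSMB5 had 48.6 and 55.8 FPKM in FDX1-OE ES libraries against 63.0 and 64.8 FPKM in control ES libraries (log2 fold change -0.29, SE 0.07, adjusted p = 0.0158). The ubiquitin receptor gene PSMD4 had 90.6 and 107 FPKM in FDX1-OE ES libraries against 120 and 120 FPKM in control ES libraries (log2 fold change -0.28, SE 0.08, adjusted p = 0.023). PSMD6 had 53.5 and 50.3 FPKM in FDX1-OE ES libraries against 63.1 and 63.0 FPKM in control ES libraries (log2 fold change -0.28, SE 0.07, adjusted p = 0.0122). In all 3 genes both FDX1-OE ES libraries were below both control ES libraries. PSMB6 (-0.22, adjusted p = 0.149), PSMB7 (0.00 after rounding, adjusted p = 0.965), POMP (-0.18, adjusted p = 0.122), PSME3 (-0.13, adjusted p = 0.267) and PSME4 (-0.05, adjusted p = 0.745) did not pass. PSMC6, an ATPase, had the highest log2 fold change of the 35 genes, 0.27 with an adjusted p of 0.0922.

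Elesclomol in control cells changed no proteasome gene at the threshold. Between control ES and control DMSO, limma called 0 of the 35 genes higher and 0 lower, against 6.74% of all tested genes higher and 1.00% lower. At an unadjusted p below 0.05 there were 4, all lower: ADRM1, PSMD7, PSMC4 and PSMD6. No share of all tested genes below that unadjusted threshold is given here, so the 4 are not read as changes. ADRM1 had 94.9 and 87.6 FPKM in control ES libraries, against 107 and 102 FPKM in control DMSO libraries (log2 fold change -0.19, SE 0.07, adjusted p = 0.105). PSMB5 had 63.0 and 64.8 FPKM in control ES libraries, against 69.8 and 73.0 FPKM in control DMSO libraries (log2 fold change -0.16, SE 0.07, adjusted p = 0.211). Control ES libraries were below control DMSO libraries in both genes without overlap. PSMB6 (0.13, adjusted p = 0.487), PSMB7 (0.11, adjusted p = 0.35), POMP (-0.08, adjusted p = 0.588), PSME3 (-0.19, adjusted p = 0.203) and PSME4 (-0.13, adjusted p = 0.448) did not pass. The median over the 35 genes was -0.06, against 0.09 over all tested genes. The count of lower genes became 3 under median-ratio scaling (PSMC4, PSMD7 and ADRM1, against 3.27% of all tested genes), 3 with library weights (3.82% of all tested genes), 1 when only the control libraries were fitted (2.89%), and 5 when either FDX1-OE ES library was left out (3.86% each time).

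FDX1 overexpression without the drug changed no proteasome gene at the threshold. Between FDX1-OE DMSO and control DMSO, limma called 0 of 35 genes in either direction, against 0.00829% of all tested genes higher and 0% lower, and every alternative setting also gave 0. At an unadjusted p below 0.05 there were 2, PSMC1 higher and PSMA4 lower. The share of all tested genes below that unadjusted threshold is not given here, so the 2 are described only and not read as changes. PSMC1 had 33.3 and 33.2 FPKM in FDX1-OE DMSO libraries, against 26.1 and 26.9 FPKM in control DMSO libraries (log2 fold change 0.32, SE 0.07, adjusted p = 0.999). PSMA4, an alpha subunit, had 40.6 and 29.7 FPKM in FDX1-OE DMSO libraries, against 44.6 and 49.7 FPKM in control DMSO libraries (log2 fold change -0.43, SE 0.14, adjusted p = 0.999). The PSMC1 replicates agreed closely in both groups, and the PSMA4 replicates in FDX1-OE DMSO were the furthest apart of any member there. The log2 fold changes of PSMB5, PSMB6, PSMB7, POMP, PSME3, PSME4 and ADRM1 lay between -0.11 and 0.11, with adjusted p = 0.999 for each. The median over the 35 genes was 0.00 after rounding.

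**Figure D3:**
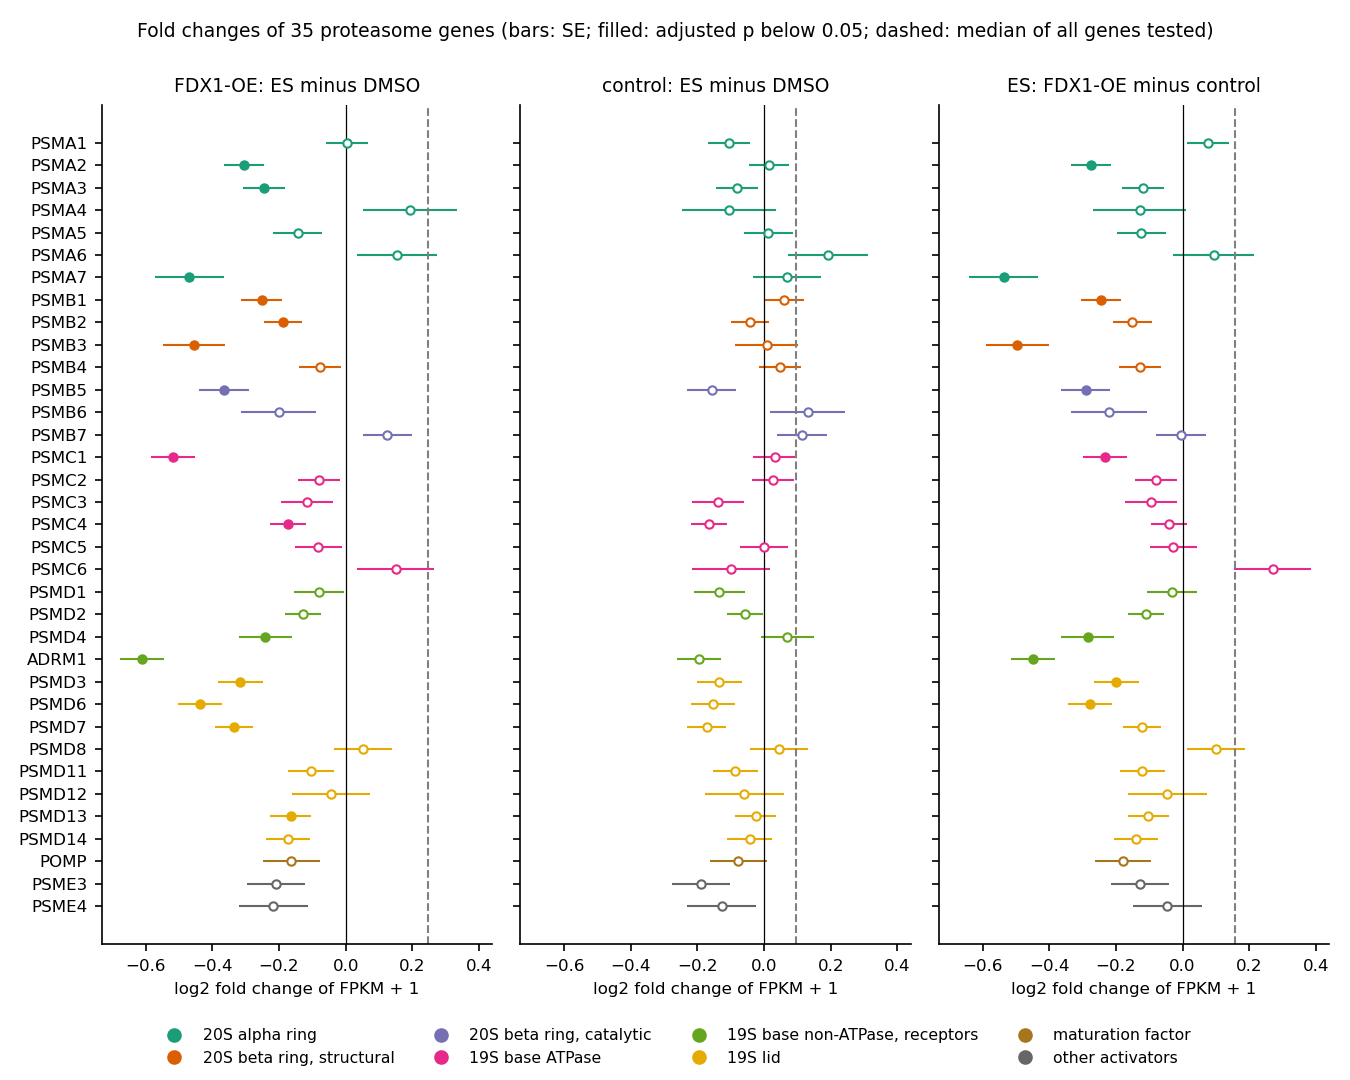
Log2 fold change on the log2(FPKM + 1) scale for each of the 35 proteasome genes in FDX1-OE ES against FDX1-OE DMSO, control ES against control DMSO and FDX1-OE ES against control ES, with bars for 1 standard error, filled points for genes called at an adjusted p below 0.05 and a dashed line at the median of all tested genes. The called genes, 15 in the first panel and 10 in the last, all lie on the negative side, and the middle panel holds 0.

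The effect of elesclomol was then compared between the cell lines. The interaction is the elesclomol effect in FDX1-OE cells minus that in control cells. It was called negative for 6 of the 35 genes and positive for 0, against 5.06% of all tested genes called negative and 13.9% positive. Counts of negative and positive interactions, here and below, are of genes called at an adjusted p below 0.05. The 6 genes were the core genes PSMA2, PSMA7, PSMB1 and PSMB3 and the base genes PSMC1 and ADRM1. Under median-ratio scaling the 14 negative genes included the lid subunits PSMD3, PSMD6, PSMD7 and PSMD13. Among genes at or above the level of the lowest member, 10.8% were negative and 11.8% positive. PSMC1 had the largest value, -0.55 (SE 0.09, adjusted p = 0.009). Its elesclomol effect was -0.52 in FDX1-OE cells and 0.03 in control cells. Part of this distance lies in the solvent libraries, where PSMC1 was 33.3 and 33.2 FPKM in FDX1-OE cells and 26.1 and 26.9 FPKM in control cells.

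PSMA7 had an interaction of -0.54 (SE 0.15, adjusted p = 0.0384), from an elesclomol effect of -0.47 in FDX1-OE cells and 0.07 in control cells. PSMB3 had -0.46 (SE 0.13, adjusted p = 0.0445), from -0.46 in FDX1-OE cells and 0.01 in control cells. ADRM1 had -0.42 (SE 0.09, adjusted p = 0.0212), from -0.61 in FDX1-OE cells and -0.19 in control cells. With the authors' scaling ADRM1 was the one of these 6 genes whose value in control cells was also negative, without passing the test there. Under median-ratio scaling all 6 values in control cells were negative, from -0.05 to -0.31, and ADRM1 passed (adjusted p = 0.0408). PSMA2 had -0.32 (SE 0.09, adjusted p = 0.0364) and PSMB1 -0.31 (SE 0.09, adjusted p = 0.0407). Among the other genes given in full, PSMB5 had -0.21 (adjusted p = 0.19), PSMB6 -0.33 (adjusted p = 0.174), PSMB7 0.01 (adjusted p = 0.953), POMP -0.09 (adjusted p = 0.633), PSME3 -0.02 (adjusted p = 0.92) and PSME4 -0.09 (adjusted p = 0.688). Only PSMC1 kept the interaction call under all 15 alternatives run for it. The count of negative genes was 11 when FDX1-OE ES replicate 2 was left out (8.89% of all tested genes) and 2 when control ES replicate 2 was (2.37%). It was 1 when control ES replicate 1 or any of the 4 DMSO libraries was left out, against 1.43% to 1.92% of all tested genes. All 3 comparisons that involve FDX1-OE ES share those 2 libraries, so their counts are not independent of each other.

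How many proteasome genes fell depended on how the libraries were put on 1 scale. With the authors' scaling, 77.5% of all calls between FDX1-OE ES and FDX1-OE DMSO were higher, and the share was 48.3% under median-ratio scaling, 48.7% under quantile normalisation and 86.6% with equal FPKM totals. The all-gene median of 0.25 became 0.00 under median-ratio scaling, -0.01 under quantile normalisation and 0.37 with equal totals. The lower proteasome genes then numbered 29, 14 and 8, and the members' median was -0.46, -0.20 and -0.03. In FDX1-OE ES against control ES, 75.0% of calls were higher with the authors' scaling, 45.0% under median-ratio scaling, 49.1% under quantile normalisation and 88.8% with equal totals. The lower proteasome genes numbered 26, 8 and 3 under the 3 alternatives, and the members' median changed sign to 0.01 with equal totals. For the interaction the share of calls that were higher was 73.4% with the authors' scaling, 38.4% under median-ratio scaling, 49.0% under quantile normalisation and 89.6% with equal totals, and the members' median became 0.01 with equal totals. In control ES against control DMSO the share was 87.0%, 52.5%, 74.5% and 88.5% in the same order of settings.

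Beside the counts under median-ratio scaling, 27.2% of all tested genes were lower between FDX1-OE ES and FDX1-OE DMSO, 18.4% between FDX1-OE ES and control ES and 9.40% in the interaction. Under quantile normalisation these shares were 24.3%, 14.8% and 5.92%, and with equal totals they were 9.06%, 6.13% and 3.33%. With equal totals 1 proteasome gene, PSMB7 (0.27), was higher between FDX1-OE ES and FDX1-OE DMSO, against 58.6% of all tested genes. Between FDX1-OE ES and control ES, PSMA1 (0.22) and PSMC6 (0.41) were higher with equal totals, against 48.6%. All 15 genes called lower between FDX1-OE ES and FDX1-OE DMSO kept a negative sign under every scaling and every left-out library. PSMA2, PSMB3, PSMB5, PSMC1, PSMD6, PSMD7 and ADRM1 also kept their call under all 16 alternatives.

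**Figure D4:**
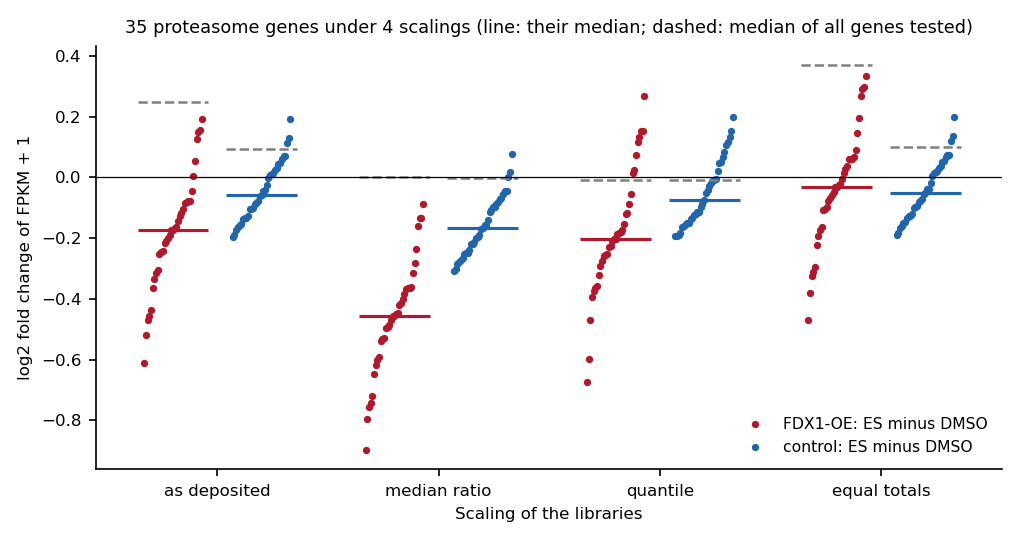
Log2 fold changes of the 35 proteasome genes for elesclomol in FDX1-OE cells and in control cells, with 1 point per gene, under the authors' scaling, median-ratio scaling, quantile normalisation and equal FPKM totals. Solid lines mark the members' median, which is -0.17, -0.46, -0.20 and -0.03 for FDX1-OE cells in that order of scalings, and dashed lines mark the median of all tested genes, which lies above it each time.

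The regulators of proteasome transcription moved in both directions. Of 10 genes in this list, 4 were higher and 3 were lower between FDX1-OE ES and FDX1-OE DMSO, with a median log2 fold change of 0.08, against 47.1% of all tested genes higher and 13.7% lower, and under median-ratio scaling NFE2L1 was the 1 that stayed higher. NFE2L1 had 48.3 and 54.2 FPKM in FDX1-OE ES libraries, 29.2 and 30.8 FPKM in control ES libraries, 24.3 and 23.8 FPKM in FDX1-OE DMSO libraries, and 23.9 and 23.4 FPKM in control DMSO libraries. It rose by a log2 fold change of 1.06 between FDX1-OE ES and FDX1-OE DMSO (SE 0.07, adjusted p = 2.46e-05) and by 0.33 between control ES and control DMSO (SE 0.07, adjusted p = 0.0352), and the interaction was 0.73 (SE 0.10, adjusted p = 0.0056). The call in control cells was lost under 9 of the 16 alternatives, and the others were kept under all.

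MAFK, a small MAF partner of such factors, had 7.32 and 7.32 FPKM in FDX1-OE ES libraries, 12.3 and 12.4 FPKM in control ES libraries, 16.7 and 17.6 FPKM in FDX1-OE DMSO libraries, and 16.6 and 15.7 FPKM in control DMSO libraries. Its log2 fold change was -1.12 between FDX1-OE ES and FDX1-OE DMSO (SE 0.07, adjusted p = 1.73e-05). MAFK and NFE2L1 thus moved in opposite directions in the same libraries. The other small MAF genes of the list did not follow MAFK. MAFG had 9.96 and 11.1 FPKM in FDX1-OE ES libraries, against 8.58 and 8.96 FPKM in FDX1-OE DMSO libraries. MAFF, a low gene, had 1.43 and 1.41 FPKM in FDX1-OE ES libraries, against 1.47 and 1.19 FPKM in FDX1-OE DMSO libraries. VCP, the segregase that extracts proteins from the endoplasmic reticulum membrane, fell to 102 and 105 FPKM in FDX1-OE ES libraries, against 133 and 131 FPKM in FDX1-OE DMSO libraries (log2 fold change -0.34, SE 0.05, adjusted p = 0.000846). Its cofactor NPLOC4 rose to 39.7 and 45.9 FPKM in FDX1-OE ES libraries, against 32.5 and 32.7 FPKM in FDX1-OE DMSO libraries. The log2 fold change of NPLOC4 was 0.38 (SE 0.08, adjusted p = 0.00373), a call lost under median-ratio scaling. UFD1, another gene of the list, had 23.9 and 26.6 FPKM in FDX1-OE ES libraries, against 30.3 and 35.8 FPKM in FDX1-OE DMSO libraries.

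The genes with the NFE2L1-type element can be set beside these levels. Of the 12 genes with a promoter window that were called lower between FDX1-OE ES and FDX1-OE DMSO, 4 held the element (PSMB3, PSMC4, PSMD3 and ADRM1), and of the 18 genes with a window that were not called, 5 held it (PSMA4, PSMC5, PSMD1, PSMD12 and PSME4). None of the 35 genes was higher in that comparison. PSMD12, whose promoter is printed above, had 15.9 and 12.5 FPKM in FDX1-OE ES libraries, against 14.8 and 14.4 FPKM in FDX1-OE DMSO libraries, and PSMD3 had 93.4 and 106 FPKM in FDX1-OE ES libraries, against 123 and 125 FPKM in FDX1-OE DMSO libraries.

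The assembly chaperones, which build the core and the base and are not part of the finished particle, included a larger fall than any proteasome subunit. Of 8 genes, 1 was higher and 2 were lower between FDX1-OE ES and FDX1-OE DMSO, with a median of -0.07, against 47.1% of all tested genes higher and 13.7% lower. Under median-ratio scaling 6 of the 8 were lower, against 27.2% of all tested genes. PSMG4, a chaperone of the alpha ring, had 9.52 and 13.4 FPKM in FDX1-OE ES libraries, 19.9 and 19.8 FPKM in control ES libraries, 22.0 and 21.3 FPKM in FDX1-OE DMSO libraries, and 18.1 and 19.2 FPKM in control DMSO libraries. Its log2 fold change was -0.88 between FDX1-OE ES and FDX1-OE DMSO (SE 0.13, adjusted p = 0.000698) and -0.76 between FDX1-OE ES and control ES (SE 0.13, adjusted p = 0.00345), called under all alternatives in both. PAAF1, a chaperone of the base, rose to 8.24 and 8.15 FPKM in FDX1-OE ES libraries, against 4.53 and 4.99 FPKM in FDX1-OE DMSO libraries (log2 fold change 0.68, SE 0.10, adjusted p = 0.000788). PSMD9, another base chaperone, had a log2 fold change of -0.28 (adjusted p = 0.0296, a call lost under 6 of the 16 alternatives), and PSMG3 had -0.18 (adjusted p = 0.0853). PSMG4 shares exon positions on the opposite strand with TUBB2B, which had 6.55 and 8.97 FPKM in FDX1-OE ES libraries and 1.36 and 1.44 FPKM in FDX1-OE DMSO libraries, and PAAF1 does so with COA4, which had 43.9 and 48.7 FPKM in FDX1-OE ES libraries and 67.9 and 65.9 FPKM in FDX1-OE DMSO libraries. In both pairs the levels of the partner and of the chaperone gene differed in opposite directions. Strand handling is not given, so reads of such pairs cannot be told apart.

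Among 12 genes for proteins that associate with the proteasome, 3 were higher and 1 was lower between FDX1-OE ES and FDX1-OE DMSO, with a median of 0.13. Of all tested genes, 47.1% were higher and 13.7% lower, with a median of 0.25. The 3 genes of the list that were higher encode shuttles and scaffolds. UBQLN4 (0.31, adjusted p = 0.00241), ECPAS (0.30, adjusted p = 0.00411) and RAD23B (0.22, adjusted p = 0.0121) each lost the call under median-ratio scaling, where the sign of RAD23B turned. The shuttle gene UBQLN1, the one that was lower, had -0.20 (adjusted p = 0.03), a call lost under 9 of the 16 alternatives.

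The genes for ubiquitin and its activating enzymes differed in direction. Of 5 genes, 1 was higher and 2 were lower between FDX1-OE ES and FDX1-OE DMSO, with a median of -0.21. Of all tested genes, 47.1% were higher and 13.7% lower, with a median of 0.25. The polyubiquitin gene UBB had 579 and 713 FPKM in FDX1-OE ES libraries, 522 and 534 FPKM in control ES libraries, 409 and 407 FPKM in FDX1-OE DMSO libraries, and 408 and 408 FPKM in control DMSO libraries. It rose by 0.65 between FDX1-OE ES and FDX1-OE DMSO (SE 0.09, adjusted p = 0.000453) and by 0.37 between control ES and control DMSO (SE 0.09, adjusted p = 0.0438). The ubiquitin-ribosomal fusion gene RPS27A had 209 and 214 FPKM in FDX1-OE ES libraries, against 359 and 339 FPKM in FDX1-OE DMSO libraries (log2 fold change -0.72, SE 0.05, adjusted p = 3.55e-05). UBA1, the main ubiquitin-activating enzyme, had 125 and 130 FPKM in FDX1-OE ES libraries, against 163 and 167 FPKM in FDX1-OE DMSO libraries (log2 fold change -0.37, SE 0.05, adjusted p = 0.000677). RPS27A has processed copies in the genome, and how the authors' counting shared reads among copies is not given, so its values are uncertain. The UBB call in control cells was lost under 9 of the 16 alternatives.

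**Figure D5:**
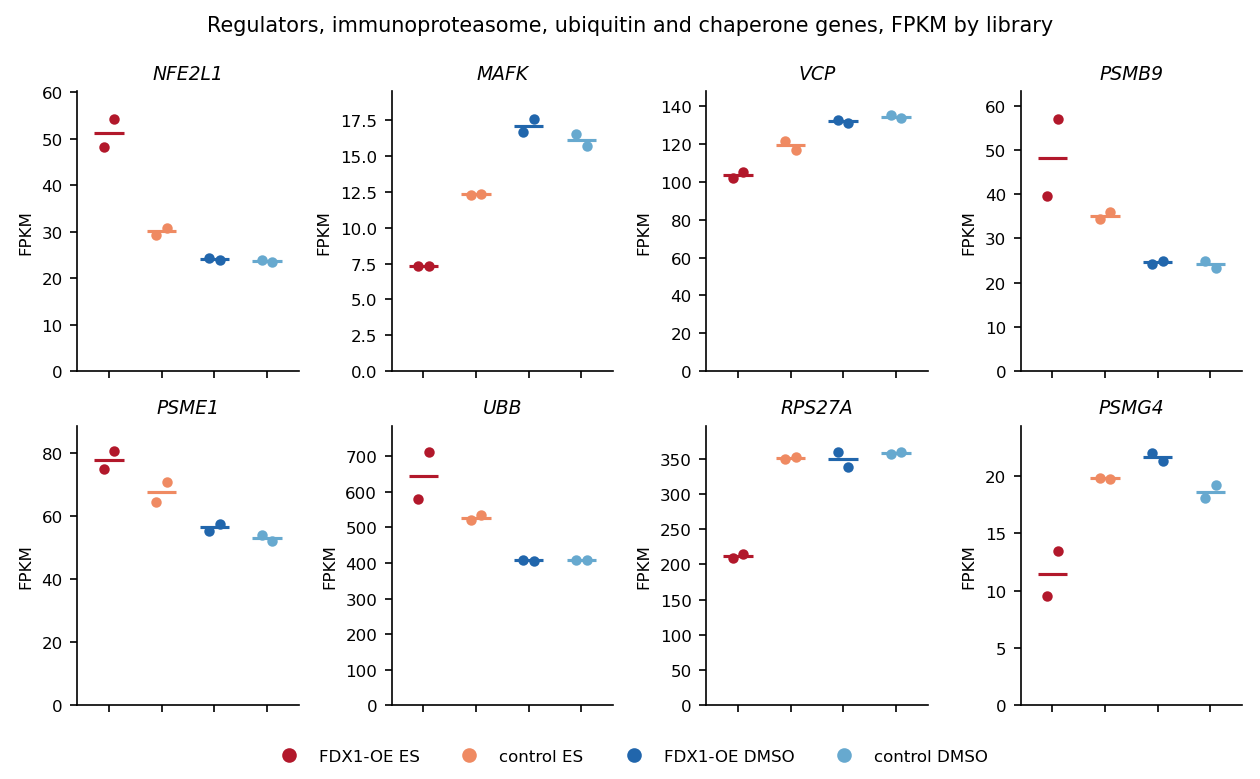
FPKM by library for NFE2L1, MAFK, VCP, PSMB9, PSME1, UBB, RPS27A and PSMG4, with 1 point per library and a line at each group mean (n = 2). NFE2L1 stands at 48.3 and 54.2 FPKM in FDX1-OE ES and MAFK at 7.32 FPKM in both of those libraries, on opposite sides of the other 6.

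The immunoproteasome subunits take the place of the constitutive catalytic subunits in the core, and the PA28 activator PSME1-PSME2 caps it. Of 5 genes, 3 were higher and 0 were lower between FDX1-OE ES and FDX1-OE DMSO, against 47.1% of all tested genes higher and 13.7% lower, with a median of 0.25, the same as over all tested genes after rounding. PSMB9 had 39.5 and 56.9 FPKM in FDX1-OE ES libraries, against 24.3 and 25.0 FPKM in FDX1-OE DMSO libraries (log2 fold change 0.92, SE 0.14, adjusted p = 0.00083). PSME1 had 0.45 (adjusted p = 0.000796) and PSME2 0.25 (adjusted p = 0.0198), both calls lost under median-ratio scaling, where the sign of PSME2 turned. Under that scaling 1 of the 5 genes, PSMB9, was higher, against 25.4% of all tested genes, and 1, PSMB10, was lower. PSMB8 (0.16, adjusted p = 0.241) and PSMB10 (-0.06, adjusted p = 0.675) did not pass. The summed FPKM of PSMB8, PSMB9 and PSMB10 divided by that of PSMB5, PSMB6 and PSMB7, a ratio that no scaling of a whole library changes, was 0.556 and 0.639 in FDX1-OE ES libraries, 0.493 and 0.475 in control ES libraries, 0.413 and 0.441 in FDX1-OE DMSO libraries, and 0.438 and 0.412 in control DMSO libraries. Both FDX1-OE ES values were above both control ES values, and those above all 4 DMSO values. Of PSMB8, PSMB9 and PSMB10, PSMB9 alone passed the test, and the ratio without it is not given here. The sum of PSMB5, PSMB6 and PSMB7 was 183 and 218 FPKM in FDX1-OE ES libraries, against 220 and 216 FPKM in FDX1-OE DMSO libraries. PSMB8 and PSMB9 overlap in exon position on opposite strands. PSMB9 also overlaps PSMB8-AS1 on the same strand. PSMB8-AS1 had 5.41 and 6.57 FPKM in FDX1-OE ES libraries, against 2.59 and 2.49 FPKM in FDX1-OE DMSO libraries. The tissue-specific subunits PSMA8 and PSMB11 were not tested, as neither exceeded 0.108 FPKM in a library.

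The proteasome genes varied together to different degrees over the 8 libraries. The Pearson correlation of each gene with the mean of the other 34 on the log2(FPKM + 1) scale had a median of 0.74, was above 0.5 for 26 genes and below 0 for 5 (PSMA1, PSMA6, PSMB7, PSMC6 and PSMD8). For ADRM1 it was 0.99. The genes outside the lists whose pattern was most like the mean of the 35 were ATAD3B (0.998), POLRMT (0.998), FAU (0.996), PALD1 (0.996) and GAPDH (0.996), each over 8 libraries. GAPDH had 2163 and 2311 FPKM in FDX1-OE ES libraries, 3215 and 3041 FPKM in control ES libraries, 3417 and 3588 FPKM in FDX1-OE DMSO libraries, and 3429 and 3464 FPKM in control DMSO libraries. These correlations describe 8 points that fall mainly into FDX1-OE ES and the rest.

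Overlapping genes and pseudogenes bear on a few of these values. PSMA6, an alpha subunit, had 127 and 93.5 FPKM in the control DMSO libraries, the widest gap between replicates of any member there, and the gene AL121594.1, which shares exon positions with it on the same strand, had 2.41 and 18.7 FPKM in the same libraries. In GENCODE release 29, 10 of the 35 genes share exon positions with another gene that reached 1 FPKM in a library, 2 on the same strand (PSMA2 and PSMA6) and 8 only on the opposite strand. Among these are PSMC1, PSMD6 and ADRM1, whose partners NRDE2, PSMD6-AS2 and LAMA5 did not exceed 2.68 FPKM in any library. Some other partners stood higher. MRPL32, opposite PSMA2, had 57.1 and 51.5 FPKM in FDX1-OE ES libraries, against 61.5 and 65.1 FPKM in FDX1-OE DMSO libraries. AC010132.3, on the strand of PSMA2, had 4.49 and 0.0598 FPKM in FDX1-OE DMSO libraries. BECN1, opposite PSME3, reached 40.1 FPKM, and SIRT3, opposite PSMD13, 8.35 FPKM. FTSJ3, opposite PSMC5, was never below 18.8 FPKM. The part of such partners in these values was not tested. The deposited tables also list 30 numbered pseudogenes of these genes, and none reached 1 FPKM, the highest being 0.861.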

How the data were processed

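RNA sequencing of 8 libraries of WSU-DLCL2 cells was used, 2 in each of 4 groups set by the labels. The authors deposited 1 FPKM value per gene row and library. No header names the unit, which was read from the values: they are not whole, and their sums differ between libraries. HISAT2, HTSeq and R 3.2.0 appear in the submitters' processing notes, with hg19 as the build and no roles. The tool that made the FPKM, the strand handling and the absolute depth are not given in the sources used here, so no counting interval can be set. A step in the low values placed relative depths within 1.18 of each other.

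Values were used as log2(FPKM + 1), a scale that understates changes of low genes. The fit by limma 3.58.1 (R 4.3.3) had a mean per group, used all 8 libraries and let the variance follow the mean (4 residual and 4.25 prior degrees of freedom). It covered the 12063 genes that reached 1 FPKM in 2 or more libraries, and p-values were adjusted by Benjamini-Hochberg over these. Genes were called at an adjusted p below 0.05, two-sided. The script was tested on simulated data. Of the deposited rows, 1059 share a symbol, and none of these is named here.

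The members, gene lists and tests were chosen with earlier results of these data known. Full statistics were given for PSMB5, PSMB6, PSMB7, POMP, PSME3, PSME4, ADRM1 and up to 6 called members with the largest rise and fall per comparison. Of other lists up to 4 genes with the smallest p were described (all 5 of the immunoproteasome list), and 5 genes most like the members' mean. From the lists of associated proteins and ubiquitin genes, 1 gene each is not reported here and is left out of the counts. PSMC6, PSMA4, UBQLN1, MAFG, MAFF and UFD1, and the overlapping genes, were named after their values were seen. Alternatives were a pseudocount of 0.1, no filter, median-ratio scaling, quantile normalisation, equal FPKM totals, library weights, a replicate block, fits of only the groups compared and leaving out each library. Promoter sequences are from RefSeq (GRCh38.p14) and overlaps from GENCODE 29; the files hold no coordinates.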

Additional observations from a re-analysis of the deposited data

Results flagged for a closer look

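For 6 proteasome genes the elesclomol effect differed between FDX1-OE and control cells by limma's test of the difference itself, adjusted over all tested genes. The difference, taken as the effect in FDX1-OE cells minus that in control cells on the log2(FPKM + 1) scale, was -0.32 for PSMA2, -0.54 for PSMA7, -0.31 for PSMB1, -0.46 for PSMB3, -0.55 for PSMC1 and -0.42 for ADRM1. In all 6 both FDX1-OE ES libraries lay below both FDX1-OE DMSO libraries, as in 23 of the 35 genes and 20.1% of all tested genes. The 6 genes were picked by a test on these same libraries, so that separation adds no support. For PSMC1 the log2 difference was -0.23 between FDX1-OE ES and control ES and 0.32 between FDX1-OE DMSO and control DMSO, so more of its value lay in the solvent libraries. PSMC1 kept the call under all 15 alternatives, and the other 5 genes lost it under 7 to 10 of them. In the first FDX1-OE ES library PSMA7 and PSMB3 had 132 and 98.9 FPKM, and in the second 169 and 122 FPKM. The part of the wider spread and lower FPKM total of these libraries in the differences was not tested.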

How the results depend on the processing

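With the library scale changed, the number of proteasome genes lower between FDX1-OE ES and FDX1-OE DMSO was 29 under median-ratio scaling and 8 with equal FPKM totals (1 gene higher), beside 15. Between FDX1-OE ES and control ES it was 26 and 3 (2 higher with equal totals) beside 10, and 3 when only the groups compared were fitted. Between control ES and control DMSO it was 3 under median-ratio scaling, 3 with library weights and 1 with only the groups compared, beside 0. The negative interactions numbered 14 under median-ratio scaling, 2 under quantile normalisation, 1 with equal totals and 1 with no filter on low values, beside 6. Apart from the scalings' own construction, the cause was not tested. Leaving out each library in turn gave 9 to 18 lower and 0 to 2 higher genes between FDX1-OE ES and FDX1-OE DMSO, 3 to 15 lower and 0 to 1 higher between FDX1-OE ES and control ES, 0 to 5 lower and 0 higher between control ES and control DMSO, 0 and 0 between FDX1-OE DMSO and control DMSO, and 1 to 11 negative and 0 to 1 positive interactions. A group left with 1 library is then assumed to vary like the others. The counts in this paragraph stand without the shares of all tested genes in the same fits.

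Members given in full turned sign in the following comparisons, where they were not called. Between control ES and control DMSO, under median-ratio scaling, PSMA2 had -0.099, PSMA7 -0.046, PSMB1 -0.055, PSMB3 -0.11 and PSMC1 -0.080. Between FDX1-OE ES and control ES, PSMB7 had 0.043 under quantile normalisation and 0.13 with equal totals, and -0.084 to 0.075 with a library left out. PSME3 had 0.012 with equal totals, and PSME4 had 0.090 with equal totals and -0.21 to 0.12 with a library left out. Between FDX1-OE ES and FDX1-OE DMSO, PSMB7 had -0.16 under median-ratio scaling, and between FDX1-OE DMSO and control DMSO it had -0.038 to 0.0075 with a library left out. In the interaction, PSMB7 had -0.16 under median-ratio scaling and -0.069 to 0.090 with a library left out. PSME3 had 0.0058 under quantile normalisation, 0.12 with equal totals and -0.14 to 0.094 with a library left out. POMP had 0.049 with equal totals and -0.21 to 0.037 with a library left out, and PSME4 had 0.044 and -0.25 to 0.076 in the same settings.

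The labels give every group replicates 1 and 2. Same-numbered libraries did not deviate together (correlations of replicate differences between groups were -0.05 to 0.08 over 12063 genes), so the numbers were not taken to pair the samples. With the replicate block, 14 genes were lower between FDX1-OE ES and FDX1-OE DMSO, 9 between FDX1-OE ES and control ES, 0 in the other comparisons, and 4 interactions were negative. Shares of all tested genes with the block are not given here. The absolute depth is not known, and 2 libraries a group limit the precision of each value.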
